A study of Mus musculus with 18 samples.

Results

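The genes described here carry proteins between the endoplasmic reticulum (ER) and the Golgi apparatus. They are 42 genes chosen by name, made up of 12 genes of the COPII coat, 9 genes of the COPI coat with its GTPase Arf1, 14 cargo and retrieval receptors, and 7 genes that comprise 6 SNAREs and the Golgi tether Golga2. All 42 had reads in all 18 libraries, as did 7794 genes out of 17208 with a read in any library. They were measured in MIN6 cells, an insulin-secreting line derived from a mouse insulinoma. The control group received DMSO, the solvent, for 18 h. The CPA1 and CPA18 groups received 200 µM cyclopiazonic acid (CPA), a reversible blocker of the SERCA pump that fills the ER with calcium, for 1 h and 18 h. Each group had 3 mRNA-seq libraries of poly(A) RNA and 3 Ribo-seq libraries of ribosome-protected fragments (footprints), 1 from each of 3 independent experiments that the labels call batches. All groups come from this 1 cell line. The same control served both CPA groups, so that CPA1 has no DMSO control of 1 h.

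Proteins made at the ER leave it in vesicles shaped by the COPII coat. The GTPase Sar1, switched on by Preb (Sec12), recruits the inner coat of Sec23 and Sec24, of which Sec24 binds cargo, and then the outer coat of Sec13 and Sec31 at sites organised by Sec16a. The COPI coat, recruited by Arf1, returns escaped ER proteins and transport machinery from the Golgi. KDEL receptors bind escaped chaperones, p24 (Tmed) proteins and lectins such as Lman1 bind cargo, and SNAREs drive the fusion of vesicles with their target membrane. In the beta cell this route carries proinsulin, and the study examined it in cells adapting to chronic ER stress.

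Library totals ranged from 520960 to 4755030 counted reads in mRNA-seq and from 168129 to 1083297 in Ribo-seq, where the 3 CPA18 libraries held 168129 to 553842. All 10 listed beta-cell markers had reads in every library, of 4 markers of other islet cells only Gcg did, and none of 6 fibroblast, endothelial and blood markers did. Of 10 ER stress markers, 9 rose in mRNA-seq and 10 in Ribo-seq in CPA18. Reads of the beta-cell markers fell from 8.72% to 25.0% of mRNA-seq reads in control to 2.54% to 7.57% in CPA18, and from 21.1% to 25.1% to 9.48% to 10.5% in Ribo-seq, 8 of the 10 passing the test in each assay. Levels are given as RPKM (reads scaled to transcript length in kilobases and to library size) in the order of experiments 1, 2 and 3, and changes as log2 fold changes ± SE of the reads per library total, from edgeR's quasi-likelihood test with the experiment as a block and Benjamini-Hochberg adjustment over 7794 genes. A gene was called at an adjusted p under 0.05. A value is a share of all reads. The median gene itself shifted by 0.36 in mRNA-seq and 0.39 in Ribo-seq in CPA18, and the cause of this shift was not tested. Counts are therefore also given after setting the median gene of each library to 0 change (centring). In bulk libraries, fewer cells of a type and less RNA per cell cannot be told apart. The 2 control libraries of experiment 2 carry labels that disagree on which is mRNA-seq. They were placed by title, and counts without that mRNA-seq library are given.

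In control cells the p24 protein Tmed3 had the highest mean level in both assays, 531 ± 270 RPKM in mRNA-seq and 566 ± 60.7 RPKM in Ribo-seq (SD, n = 3). In experiment 1 its mRNA-seq level of 247.9 lay under that of Arf1, 252.6. Kdelr3 had the lowest footprint level, 2.49 RPKM. The ratio of Ribo-seq to mRNA-seq RPKM within an experiment, termed ribosome occupancy, was lowest for the SNAREs Gosr2, 0.316 ± 0.133, and Ykt6, 0.324 ± 0.142, and highest for Tmed5, 6.83 ± 3.86, and the lectin Lman1, 7.32 ± 4.55. These ratios varied widely between experiments for Lman1, which stood at 2.40, 8.19 and 11.4, and little for Tmed10, at 1.67, 1.61 and 1.48. The Tmed5 ratio rests on 3, 16 and 7 mRNA-seq reads in control. Both RPKM are scaled to the whole transcript, while the study found Ins2 footprints enriched in the coding region. Ranks between genes are thus not ranks of translation alone. Reads of the 42 genes together made up 0.674% ± 0.144 of mRNA-seq reads and 0.869% ± 0.0810 of Ribo-seq reads (SD, n = 3).

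Chronic treatment raised the mRNA of most of these genes. In CPA18 against control, 28 of the 42 genes rose and none fell, where 25.9% of all genes rose and 7.69% fell. The median change was 0.80 against 0.36 for all genes. With libraries centred on the median gene, 23 of the 28 remained higher and none was lower, where 15.5% of all genes were higher and 15.8% lower. Sec24c, Copg1, Copz1, Surf4 and Golga2 were the 5 that did not remain. The calls rest on comparing libraries within an experiment. Without the block only Kdelr3 passed (adjusted p = 0.0401), and the other 27 lay between 0.0755 and 0.539. Of all 7794 genes, 154 passed without it in either direction. Without experiment 3 the count was 12, and without the control library of experiment 2 it was 17. With library totals that leave out Ins1, Ins2 and Lars2, 27 genes were called. The genes' share of mRNA-seq reads reached 1.24% ± 0.409 in CPA18, from 0.772% to 1.52%, against 0.528% to 0.816% in control, so that the groups overlapped.

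**Figure D1:**
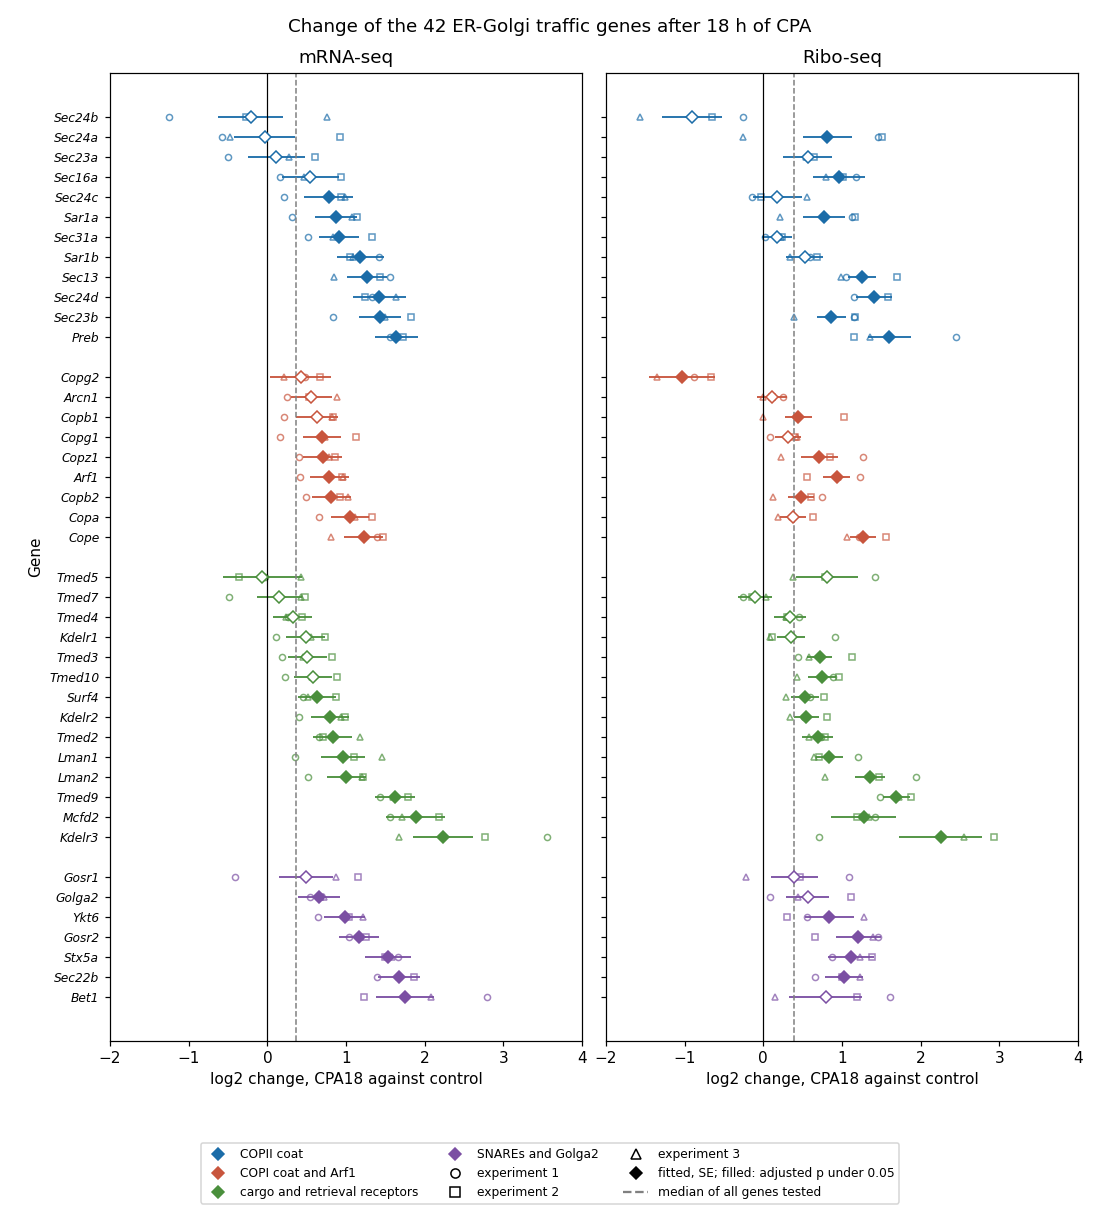
Log2 fold change of CPA18 against control for each of the 42 genes, grouped by role, in mRNA-seq and Ribo-seq. Diamonds with bars are fitted changes with 1 SE, filled where the adjusted p was under 0.05, open symbols are the 3 experiments, and the dashed line is the median gene. Kdelr3 lies highest in both assays, at 2.23 and 2.25, and most genes lie above the median gene.

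Of the 12 COPII genes, 8 rose in mRNA-seq and none fell, with a median change of 0.89. Preb, the exchange factor that loads Sar1 with GTP, stood at 7.505, 14.8 and 16.5 RPKM in control and 21.9, 48.6 and 51.1 in CPA18. It rose 3.11-fold, by a log2 change of 1.64 ± 0.27 (adjusted p = 6.76e-07). Every CPA18 library was above every control library, and experiment 1 was the lowest in each group. Sec23b, the GTPase-activating subunit of the inner coat, stood at 34.1, 25.9 and 36.0 in control and 61.0, 91.8 and 101.8 in CPA18, a change of 1.43 ± 0.27 (adjusted p = 1.01e-05). Its paralogue Sec23a stood at 10.3, 2.67 and 2.12 in control and 7.26, 4.05 and 2.57 in CPA18, a change of 0.11 ± 0.36 (adjusted p = 0.841). The groups of Sec23b did not overlap and those of Sec23a did. Sec23b was already the more abundant paralogue in control, and its 87.3% ± 9.25 of the pair's mRNA-seq RPKM in control and 94.2% ± 4.30 in CPA18 overlapped.

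Of the 4 Sec24 paralogues, which bind cargo, Sec24d and Sec24c rose in mRNA-seq. Sec24d stood at 5.44, 3.60 and 3.64 RPKM in control and 13.7, 8.51 and 11.3 in CPA18, a change of 1.42 ± 0.33 (adjusted p = 0.000479). Sec24c stood at 7.02, 7.56 and 8.08 in control and 8.20, 14.5 and 15.9 in CPA18, a change of 0.78 ± 0.31 (adjusted p = 0.0418, or 0.123 after centring). For both genes no CPA18 library fell within the control range, by a narrow margin for Sec24c in experiment 1. Sec24a (4.24, 1.25 and 1.59 in control, 2.84, 2.38 and 1.15 in CPA18) and Sec24b (5.99, 1.78 and 1.54 in control, 2.51, 1.48 and 2.60 in CPA18) did not pass the test, and their groups overlapped. Of the RPKM of the 4 paralogues, Sec24d held 24.6% ± 0.709 in control and 39.5% ± 9.64 in CPA18 in mRNA-seq, and 42.7% ± 3.20 and 63.5% ± 9.61 in Ribo-seq. In Ribo-seq Sec24b held 19.1% ± 0.869 in control and 6.48% ± 2.70 in CPA18, where it had 7, 6 and 10 reads. Sec24c held 25.7% ± 5.37 and 15.65% ± 1.38. None of these shares overlapped between the groups in Ribo-seq, nor did those of Sec24d and Sec24b in mRNA-seq. Each had p = 0.1 in a two-sided exact permutation test (n = 3 against 3), the smallest that this design allows. After adjustment over 40 tests of paralogue shares this value was 0.444.

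**Figure D2:**
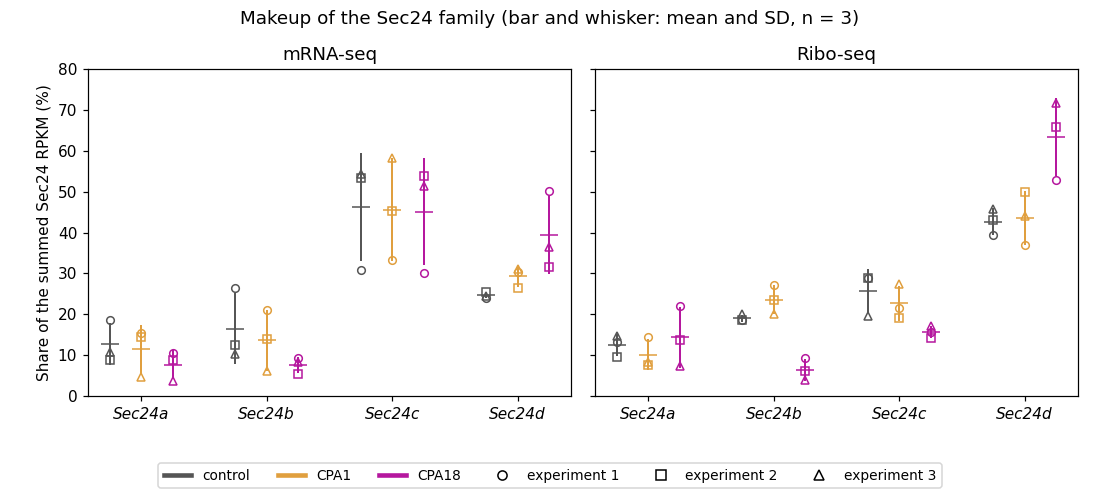
Share of each Sec24 paralogue in the summed RPKM of the 4, in percent, in control, CPA1 and CPA18 for both assays, with a point for each of the 3 experiments and bars and whiskers for the mean and SD. The Sec24d share in Ribo-seq lies between 39.4% and 45.8% in control and between 52.9% and 71.7% in CPA18.

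The remaining COPII genes include the GTPases and the outer coat. Sar1b stood at 29.1, 33.0 and 39.1 RPKM in control and 77.8, 68.1 and 83.4 in CPA18, a change of 1.18 ± 0.29 (adjusted p = 0.00102). Sar1a stood at 41.8, 29.9 and 34.2 in control and 52.1, 65.8 and 72.1 in CPA18, a change of 0.87 ± 0.26 (adjusted p = 0.00677). Neither gene's groups overlapped, and Sar1b's share of the pair did. The outer coat genes Sec13 and Sec31a rose by 1.27 ± 0.25 and 0.91 ± 0.26. Sec16a did not pass (0.55 ± 0.37, adjusted p = 0.248). Sec13 is 1 of 6 genes, with Arcn1, Arf1, Tmed2, Tmed7 and Tmed10, in which over 10% of the 28-base stretches of the transcripts also occur in another gene (10.2% to 57.6%), so that their counts are uncertain.

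**Figure D3:**
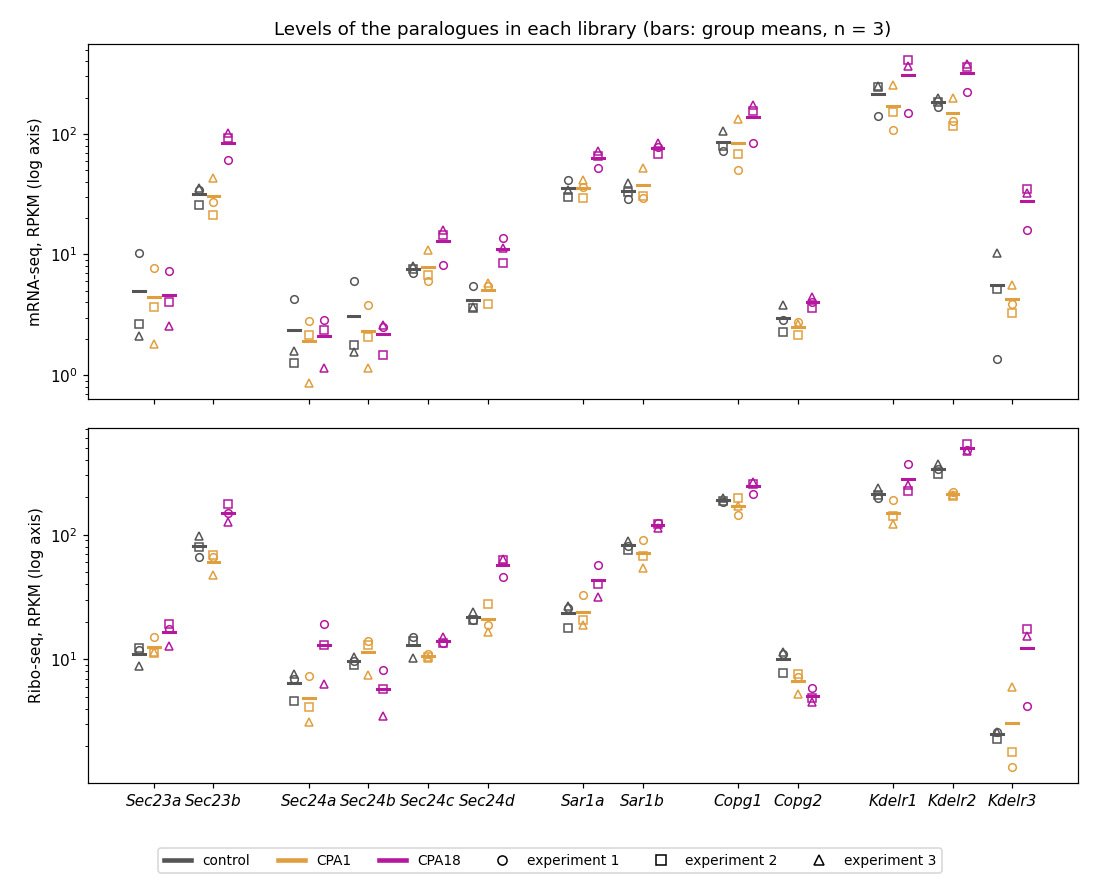
RPKM on a log axis in each experiment for the Sec23, Sec24, Sar1, Kdelr and Copg paralogues in control, CPA1 and CPA18, with mRNA-seq and Ribo-seq in separate panels and bars at the group means (n = 3). Sec23b and Sar1b rise in mRNA-seq in CPA18, and Sec24b and Copg2 footprints are lower in CPA18 than in control in all 3 experiments.

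Of the 9 genes of COPI and Arf1, 6 rose in mRNA-seq and none fell, with a median change of 0.70. Cope, the epsilon subunit, stood at 143, 378 and 608 RPKM in control and 376, 1041 and 1067 in CPA18, a change of 1.22 ± 0.25 (adjusted p = 4.58e-05). The groups overlapped, with the control level of experiment 3 far above that of experiment 1, but CPA18 exceeded control in each experiment. Copa, the alpha subunit, stood at 57.2, 53.9 and 65.5 in control and 90.5, 135 and 142 in CPA18, with no overlap and a change of 1.05 ± 0.24 (adjusted p = 0.0004). Copb2, the beta' subunit, stood at 70.6, 35.6 and 33.4 in control and 99.2, 67.4 and 67.8 in CPA18, a change of 0.81 ± 0.25 (adjusted p = 0.00791). Its groups overlapped through the high control library of experiment 1. The gamma subunit has a pair of paralogues. Copg1 stood at 71.8, 79.0 and 106 in control and 84.1, 155 and 175 in CPA18, a change of 0.69 ± 0.25 (adjusted p = 0.0213, or 0.0724 after centring). Copg2, at 2.87, 2.27 and 3.83 in control and 4.01, 3.61 and 4.43 in CPA18, did not pass (0.42 ± 0.39, adjusted p = 0.414). Both paralogues had overlapping groups. Arf1 (0.79) and Copz1 (0.70) rose, while Copb1 (0.63, adjusted p = 0.0566) and Arcn1 (0.56, adjusted p = 0.0812) did not pass.

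Of the 14 receptors, 8 rose in mRNA-seq, with a median change of 0.71. Kdelr3, a KDEL receptor that returns ER chaperones, stood at 1.36, 5.16 and 10.3 RPKM in control and 15.9, 34.9 and 32.6 in CPA18. The change was 2.23 ± 0.38, or 4.71-fold (adjusted p = 1.54e-06), the largest of the 42 genes. The groups did not overlap. In experiment 1 the control library held 1 read against 28 in CPA18, a ratio of 11.8 with a 95% interval of 1.94 to 480.4, which covers counting error only. The far more abundant Kdelr2 stood at 167, 183 and 197 in control and 221, 362 and 378 in CPA18, a change of 0.79 ± 0.24 (adjusted p = 0.00739), without overlap. Kdelr1 stood at 140, 248 and 251.3 in control and 151, 410 and 368 in CPA18 and did not pass (0.48 ± 0.24, adjusted p = 0.112), its groups overlapping. Kdelr3 therefore made up 1.29% ± 0.905 of the RPKM of the 3 receptors in control and 4.21% ± 0.112 in CPA18, again with no overlap. Its exact permutation p was 0.1 (n = 3 against 3), the smallest possible, and 0.444 after adjustment over the 40 tests of paralogue shares.

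Mcfd2, the partner of Lman1 in the export of glycoproteins, and the p24 protein Tmed9 had the next largest changes among receptors. Mcfd2 stood at 4.40, 3.33 and 6.14 RPKM in control and 13.1, 15.3 and 20.1 in CPA18, a change of 1.89 ± 0.37 (adjusted p = 3.53e-05). Tmed9 stood at 81.3, 205 and 217 in control and 220.1, 707 and 653 in CPA18, a change of 1.62 ± 0.25 (adjusted p = 1.24e-07). Neither gene's groups overlapped. Lman2 (1.00), Lman1 (0.97), Tmed2 (0.83) and the cargo receptor Surf4 (0.63) also rose. Tmed3, Tmed4, Tmed5, Tmed7 and Tmed10, at -0.06 to 0.58, did not pass, so that p24 proteins of 1 family ranged from no call to a 3.07-fold rise.

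Of the 6 SNAREs and Golga2, 6 genes rose in mRNA-seq, with a median change of 1.16. Bet1 stood at 2.55, 14.1 and 4.97 RPKM in control and 17.6, 33.0 and 21.1 in CPA18, a change of 1.74 ± 0.37 (adjusted p = 9.51e-05). In experiment 1 it had 2 reads in control and 33 in CPA18, a ratio of 6.92 with a 95% counting interval of 1.77 to 59.5. Sec22b, the vesicle SNARE that pairs with Stx5a, Gosr2 and Bet1, stood at 37.0, 56.9 and 55.8 in control and 97.6, 207.8 and 178 in CPA18, a change of 1.67 ± 0.26 (adjusted p = 1.99e-07). None of the CPA18 values of Bet1 or Sec22b lay in the control range. Stx5a, the syntaxin of this complex, stood at 11.7, 32.3 and 27.7 in control and 36.5, 90.5 and 82.6 in CPA18, a change of 1.53 ± 0.29 (adjusted p = 1.68e-05). Its groups did not overlap, and its lowest value in each group was in experiment 1. Gosr2 rose by 1.16 ± 0.25 and Ykt6 by 0.98 ± 0.26, Golga2 by 0.65 ± 0.27 (adjusted p = 0.0491, or 0.187 after centring), and Gosr1 did not pass (0.49 ± 0.34). The 4 SNAREs of the complex formed at the cis-Golgi, Stx5a, Gosr2, Bet1 and Sec22b, thus all rose.

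Genes of this route are known targets of the transcription factors of the unfolded protein response, so the promoters were searched for their motifs. RefSeq (GRCm38.p6) gave a window from 250 bases before to 50 after the start for 37 of the 42 genes. The core of the unfolded protein response element, TGACGTG on either strand, was found in 7 of them (18.9%), Sec23a, Sec24d, Copb1, Copb2, Arf1, Kdelr3 and Stx5a, against 3.69% of 6310 genes with reads in all libraries and 2.01% of all 32851 windows. The stretches upstream of the start are shown for 4 of the 7, among them Kdelr3 and Sec24d, which had the largest changes of their paralogue families. Capitals mark the core, which is read as its reverse complement in Kdelr3 and Copb1.
Kdelr3: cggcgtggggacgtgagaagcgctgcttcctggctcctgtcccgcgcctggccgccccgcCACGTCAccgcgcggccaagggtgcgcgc
Sec24d: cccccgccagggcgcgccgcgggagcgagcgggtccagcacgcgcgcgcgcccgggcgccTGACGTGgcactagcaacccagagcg
Copb1: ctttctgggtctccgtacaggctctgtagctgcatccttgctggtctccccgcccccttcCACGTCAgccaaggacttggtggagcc
Arf1: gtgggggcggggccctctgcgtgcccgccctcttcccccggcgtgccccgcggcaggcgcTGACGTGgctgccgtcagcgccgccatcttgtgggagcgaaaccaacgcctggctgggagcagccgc
They lie at chr15:79516319-79516407 on the plus strand (Kdelr3), chr3:123267410-123267495 on the plus strand (Sec24d), chr7:114254681-114254767 on the minus strand (Copb1) and chr11:59228180-59228306 on the minus strand (Arf1), with the first base of the core at -29, -26, -27 and -84 from the start. In the window of another annotated Arf1 start, the same core begins at 22, downstream of that start. Of the 7 genes with the core, 5 rose in mRNA-seq in CPA18 (Sec23a and Copb1 did not pass), and of the 30 without it 20 rose. The cyclic AMP response element TGACGTCA, which shares TGACGT with the core, was in Cope and Gosr2 (5.41% of the 37), in 4.26% of the genes with reads in all libraries and in 1.79% of windows. TGATGNAA, the element bound by ATF4 dimers, was in Kdelr1, in 2.54% of the genes with reads in all libraries and in 3.97% of windows. The ER stress response element (CCAAT, 9 bases, CCACG) was in none of the 37, in 0.222% of the genes with reads in all libraries and in 0.119% of all windows. A match is a description of these letters, and binding was not measured.

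Footprints of most of these genes also rose in CPA18. In Ribo-seq 26 genes rose and 1 fell against control, where 24.6% of all genes rose and 6.35% fell, with a median change of 0.73 against 0.39 for all genes. After centring on the median gene, 10 genes were higher and 2 lower, where 10.1% of all genes were higher and 13.0% lower. The 10 are Sec24d, Sec13, Preb, Cope, Arf1, Lman2, Tmed9, Kdelr3, Sec22b and Gosr2, and the 2 are Copg2 and Sec24b. Without the block 19 genes were called, against 1957 of all 7794 genes in either direction. Without experiment 2 the count was 17, and with library totals lacking Ins1, Ins2 and Lars2 it was 19. TMM factors gave 15 and DESeq2, with its own size factors, 9. By library totals, COPII had 7 of 12 genes up (median 0.79), and COPI and Arf1 had 5 of 9 up and 1 down (0.45). Receptors had 10 of 14 up (0.73), and SNAREs with Golga2 had 4 of 7 up (0.84). With centring, COPII had 3 genes higher and 1 lower, and COPI and Arf1 had 2 higher and 1 lower. Receptors then had 3 higher, SNAREs with Golga2 had 2 higher, and neither had any lower. The COPI and Arf1 median was only 0.06 higher than the median gene, so this class lay close to the background. The share of the 42 genes in Ribo-seq reads was 1.43% ± 0.0472 in CPA18.

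Tmed9 had the smallest adjusted p. Its footprints stood at 180.7, 173.5 and 177 RPKM in control and 504.5, 639 and 583 in CPA18, a change of 1.69 ± 0.17 (adjusted p = 8.88e-19). Lman2, a lectin of the early secretory route, stood at 33.0, 29.7 and 51.1 in control and 127, 82.2 and 88.3 in CPA18, a change of 1.36 ± 0.19 (adjusted p = 2.28e-10). The CPA18 values of both genes were above all control values. Kdelr3 stood at 2.58, 2.28 and 2.61 in control and 4.21, 17.4 and 15.3 in CPA18, a change of 2.25 ± 0.53 (adjusted p = 0.000354). It rests on few reads, 3, 3 and 4 in control and 1, 5 and 12 in CPA18, and in experiment 1 the ratio of 1.63 had a counting interval of 0.0310 to 20.3. Kdelr2 rose by 0.55 ± 0.16 (adjusted p = 0.00471, or 0.594 after centring).

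In the COPII coat, Preb footprints stood at 5.86, 7.38 and 10.1 RPKM in control and 32.1, 16.4 and 25.8 in CPA18, a change of 1.60 ± 0.28 (adjusted p = 2.92e-07). Sec24d stood at 20.7, 20.8 and 23.8 in control and 46.0, 62.2 and 63.3 in CPA18, a change of 1.40 ± 0.23 (adjusted p = 3.66e-08). Neither gene's groups overlapped. Sec23b rose by 0.87 ± 0.19 (adjusted p = 5.72e-05, or 0.0503 after centring). Sec24a rose by 0.81 ± 0.31 (adjusted p = 0.0332, but 0.0836 without the block and 0.359 after centring), from 6.99, 4.59 and 7.61 to 19.3, 13.0 and 6.38, with experiment 3 against the direction. Sec24b stood at 9.74, 9.02 and 10.4 in control and 8.12, 5.76 and 3.52 in CPA18. Its change of -0.90 ± 0.38 did not pass (adjusted p = 0.0523) and passed after centring (adjusted p = 0.00303), with no overlap between the groups.

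Cope footprints stood at 399.9, 346 and 498.5 RPKM in control and 929.5, 1019 and 1043 in CPA18, a change of 1.27 ± 0.17 (adjusted p = 4.79e-12), without overlap. Copg2 was the 1 gene whose footprints fell. It stood at 10.9, 7.77 and 11.5 in control and 5.93, 4.90 and 4.50 in CPA18, a change of -1.03 ± 0.42 (adjusted p = 0.0485, or 0.0650 without the block and 0.00385 after centring). The groups did not overlap, but the call was lost without any 1 of the experiments (adjusted p of 0.0915 to 0.349). Copg2 made up 5.04% ± 0.874 of the RPKM of the Copg pair in control and 2.09% ± 0.547 in CPA18. Among the SNAREs, Gosr2 stood at 14.2, 9.84 and 12.9 in control and 40.1, 14.8 and 33.6 in CPA18, a change of 1.21 ± 0.29 (adjusted p = 0.000355). Stx5a stood at 29.6, 19.3 and 21.2 in control and 54.5, 50.4 and 49.98 in CPA18, a change of 1.11 ± 0.29 (adjusted p = 0.00129, or 0.0615 after centring). Neither SNARE's groups overlapped, though the lowest Gosr2 value in CPA18 was close to the highest in control.

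Both assays called 21 genes up in CPA18. Over all genes 25.9% rose in mRNA-seq and 24.6% in Ribo-seq, and the overlap of their calls is not given here. In mRNA-seq alone 7 were called (Sec24c, Sec31a, Sar1b, Copa, Copg1, Golga2 and Bet1), and in Ribo-seq alone 5 were called up (Sec24a, Sec16a, Copb1, Tmed3 and Tmed10). The other 8, Sec23a, Sec24b, Arcn1, Tmed4, Tmed5, Tmed7, Kdelr1 and Gosr1, were called in neither. A call in 1 assay alone does not show that the assays differ. That difference is the change in ribosome occupancy, tested as the interaction of treatment and assay over all 18 libraries. edgeR called none of the 42 genes in CPA18 against control, where 0.462% of all genes were called. Unadjusted p was under 0.05 for 3 of the 42, all lower in CPA18, against 702 of all 7794 genes, 260 of them lower. Neither DESeq2 nor limma called any of the 42. The 3 were Copg2 (-1.44, adjusted p = 0.366), Sec31a (-0.75, adjusted p = 0.432) and Copa (-0.67, adjusted p = 0.471) in the edgeR interaction test. Occupancy of Copg2 stood at 3.81, 3.42 and 3.004 in control and 1.48, 1.36 and 1.01 in CPA18, without overlap. The median change over the 42 was -0.11, against 0.03 over all genes.

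**Figure D4:**
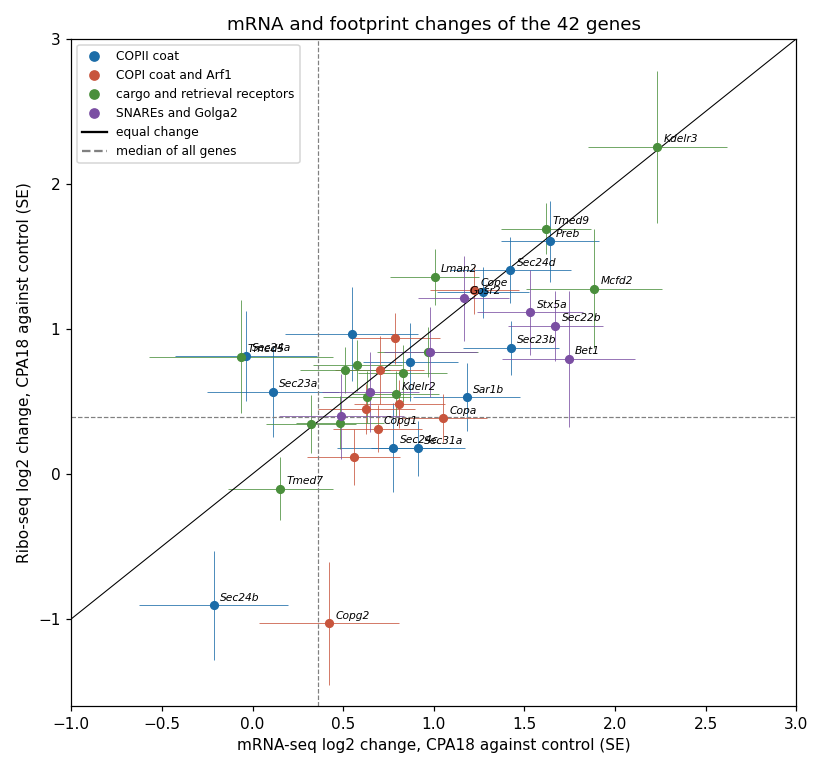
Log2 fold change of CPA18 against control in Ribo-seq against that in mRNA-seq for the 42 genes, coloured by role, with bars of 1 SE, the line of equal change and dashed lines at the median gene. Copg2 lies below 0 in Ribo-seq (-1.03) and above 0 in mRNA-seq (0.42), and Kdelr3 lies at the upper right (2.23 and 2.25).

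No change in mRNA level was detected after acute treatment. In CPA1 against control edgeR called none of the 42 genes in mRNA-seq, where 0.719% of all genes were called. Copz1 (-0.54, adjusted p = 0.694 in the edgeR test) alone had an unadjusted p under 0.05, against 486 of all 7794 genes. DESeq2 and limma called none of the 42. The median change was -0.09 against -0.12 for all genes. Footprints differed for Kdelr2. It stood at 334, 306 and 370.2 RPKM in control and 220.5, 204 and 207 in CPA1, without overlap, and fell by 0.68 ± 0.16 on the log2 scale (adjusted p = 0.00177). None rose, where 3.72% of all genes rose and 2.78% fell. With libraries centred on the median gene, Kdelr1 (-0.63, adjusted p = 0.0120), Tmed3 (-0.56, adjusted p = 0.0238) and Tmed7 (-0.61, adjusted p = 0.0376) were lower too, and none was higher, where 4.71% of all genes were lower and 2.93% higher. The median over the 42 was -0.10 in Ribo-seq against 0.07 over all genes, and 13 of the 42 (31.0%) lay below the median gene in all 3 experiments and 2 (4.76%) above it, against 19.9% and 18.9% of all genes. No occupancy was called (0.0898% of all genes), and DESeq2 and limma called none. No unadjusted p was under 0.05 in the edgeR test, against 549 of all 7794 genes.

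From CPA1 to CPA18 the direction was upward. In mRNA-seq 31 of the 42 genes were higher in CPA18 than in CPA1 and none was lower, where 31.9% of all genes were higher and 5.54% lower. In Ribo-seq 28 were higher and 1, Sec24b, was lower, where 17% were higher and 5.52% lower. After centring 21 genes were higher and none lower in mRNA-seq (15.3% and 14.3% of all genes), and 17 higher and 1 lower in Ribo-seq (8.80% and 10.1%). Kdelr2 footprints, low in CPA1, stood at 477.5, 534.5 and 470.3 RPKM in CPA18, a change of 1.23 ± 0.17 from CPA1 (adjusted p = 8.12e-11). All 3 values were above both the control and the CPA1 values. Sec24b footprints stood at 13.9, 12.9 and 7.46 in CPA1, and their change to CPA18 was -1.09 ± 0.39 (adjusted p = 0.0290). Without the block 25 genes were called in Ribo-seq and 1 in mRNA-seq, against 1409 and 138 of all 7794 genes in either direction. edgeR called no occupancy in this comparison (0.0770% of all genes), and DESeq2 and limma called none. Sec24a (1.09) was the 1 gene of the 42 with an unadjusted p under 0.05 in the edgeR test, against 443 of all 7794 genes.

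**Figure D5:**
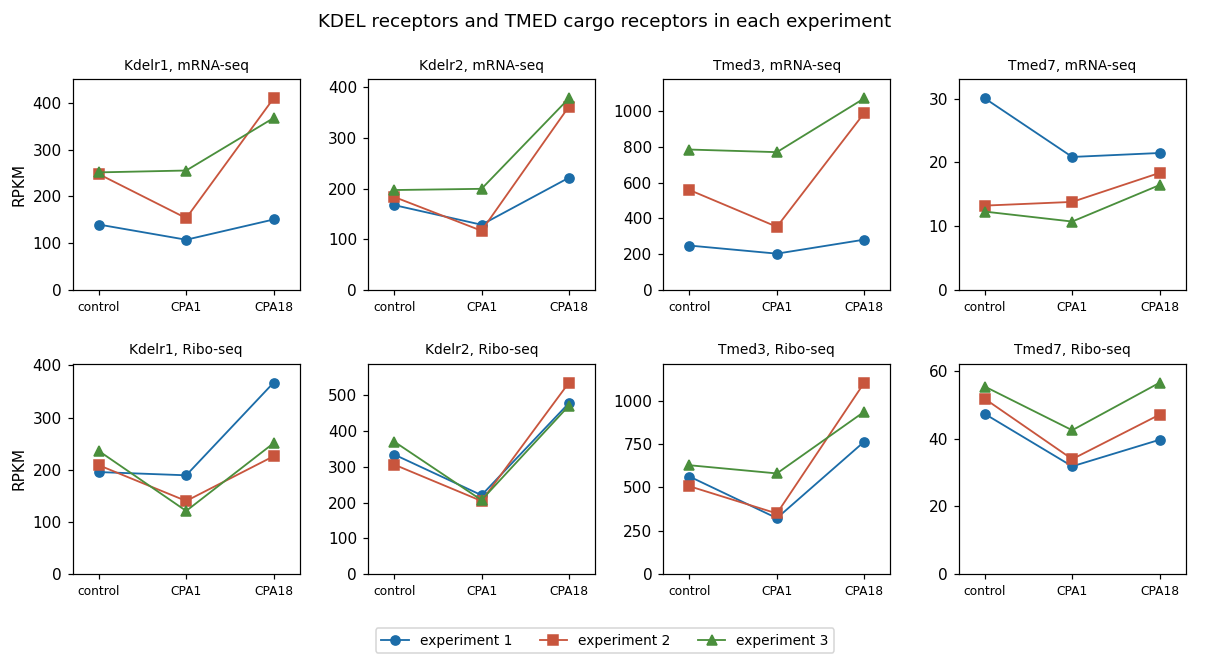
RPKM of Kdelr1, Kdelr2, Tmed3 and Tmed7 in control, CPA1 and CPA18, with mRNA-seq above and Ribo-seq below and a line for each of the 3 experiments. The axes are linear and start at 0. Kdelr2 footprints lie at 204 to 220.5 in CPA1, under the control range of 306 to 370.2, and at 470.3 to 534.5 in CPA18.

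A wider list of 73 other genes of ER to Golgi traffic, of which 61 had reads in all libraries, had 20 up and 1 down in mRNA-seq in CPA18, where 25.9% of all genes rose and 7.69% fell, with a median change of 0.57 against 0.36 over all genes. After centring 12 were higher and 4 lower, where 15.5% of all genes were higher and 15.8% lower. The largest increases were in Bet1l, a Golgi SNARE (1.88 ± 0.32, adjusted p = 1.8e-06), Stx18, a SNARE of retrograde traffic to the ER (1.65 ± 0.33, adjusted p = 4.24e-05), Creb3, an ER-bound transcription factor (1.60 ± 0.27, adjusted p = 8.85e-07), Yipf5 (1.48 ± 0.31, adjusted p = 9.27e-05) and the Golgi stacking protein Gorasp1 (1.40 ± 0.31, adjusted p = 0.000162). Creb3 stood at 30.8, 71.8 and 90.3 RPKM in control and 69.7, 258 and 282 in CPA18. Tmed8, of the p24-related genes, was the 1 that fell, from 8.56, 3.47 and 3.41 to 1.68, 1.26 and 1.63 (-1.61 ± 0.35, adjusted p = 0.000154). Without the block none of these 6 passed (adjusted p of 0.0872 to 0.170). In Ribo-seq 21 of the 61 rose and none fell, where 24.6% of all genes rose and 6.35% fell. The median of 0.40 lay at that of all genes (0.39). With centring 8 were higher and 4 lower, where 10.1% of all genes were higher and 13.0% lower.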

How the data were processed

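The members and the lists were chosen with earlier results of these data known. Per the study's methods, the authors aligned reads of 15 to 40 bases to the GRCm38 mouse transcript reference using Bowtie2 and deposited, for each of 3 experiments, raw read counts per RefSeq transcript, RPKM values computed by the authors over the counted reads, and transcript lengths. Fragmented poly(A) RNA gave mRNA-seq, and RNase-protected monosome fragments gave Ribo-seq. Counts and RPKM were summed here per gene, and 7794 genes with reads in all 18 libraries were kept.

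Counts were tested in R 4.3.3 with edgeR 4.0.16 (glmQLFit, glmQLFTest), over the 9 libraries of an assay, scaled by library total and blocked by experiment. Occupancy was the interaction of treatment and assay over 18 libraries, blocked by each combination of experiment and assay. The labels call each replicate number a batch, so libraries of a number were paired. Their deviations from group means correlated at r = 0.109 to 0.742 in mRNA-seq and 0.0904 to 0.202 in Ribo-seq. DESeq2 1.42.0 and limma 3.58.1 (on log2 of RPKM plus 0.5 or 1) were alternatives, with other scalings, filters and left-out libraries. After seeing the data, an offset for GC content and length and sums over only those transcripts with reads in all libraries were added. Scripts were tested on simulated data. With 3 libraries a group and no molecular identifiers, intervals cover counting error only. Paralogue shares were compared by a two-sided exact permutation test.

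Genes given by library were, in each role, the 3 with the largest mRNA-seq change and the 2 with the largest Ribo-seq change in CPA18 among those called with 1 sign in every experiment, genes called in CPA1, and the paralogue families. Of the wider list, up to 5 called increases and 5 called decreases were named. Tmed3, Tmed7 and the low-count ratios were added after their values were seen. The 2 control libraries of experiment 2 have a title and a description that name different assays. Title and column heading were used. Shared 28-base stretches were counted over annotated transcripts.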

Additional observations from a re-analysis of the deposited data

Results flagged for a closer look

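The effects of 1 h and 18 h of CPA differed by the test of CPA18 against CPA1 in 31 of the 42 genes in mRNA-seq and in 29 in Ribo-seq. The comparisons of CPA1 and of CPA18 with control share the control libraries. In some of these genes every experiment was below control at 1 h and above it at 18 h on the scale of library totals, on which the median mRNA-seq gene itself moved from -0.12 to 0.36. In mRNA-seq these were 4 of the 42 (9.52%, against 4.73% of all genes), Copz1 (log2 change from CPA1 to CPA18 of 1.24), Lman2 (1.17), Tmed3 (0.81) and Surf4 (1.00). In Ribo-seq they were 9 of the 42 (21.4%, against 4.40% of all genes), Sec23b (1.28), Copa (0.63), Lman1 (1.21), Tmed2 (0.99), Tmed3 (1.18), Tmed10 (0.87), Kdelr1 (0.89), Kdelr2 (1.23) and Surf4 (0.88). Relative to the median gene, 3 genes moved this way in mRNA-seq (Copz1, Arf1 and Kdelr2, 7.14% against 2.42% of all genes) and 5 in Ribo-seq (Sec23b, Lman1, Tmed2, Tmed10 and Kdelr2, 11.9% against 2.99%), so that Lman2, Tmed3, Surf4, Copa and Kdelr1 depend on the scale. On the scale of library totals, Kdelr2 footprints alone among these genes passed the test at 1 h. With centring, Kdelr1 and Tmed3 footprints passed it too.

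In CPA18 Copg2 was above control in mRNA-seq and below it in Ribo-seq in all 3 experiments. The mRNA-seq part depends on the scale, since relative to the median gene its changes were 0.57, 0.18 and -0.38. In Ribo-seq Copg2 lay below the median gene in all 3. The occupancy change of -1.44 did not pass the edgeR test of the difference (adjusted p = 0.366), and Copg2 had under 10 reads in at least 1 library of each assay.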

How the results depend on the processing

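Over 116 calls of these genes and 1753 recomputed values, 1372 kept direction and call, 381 lost the call and none changed direction. Without the replicate block 69 of the 116 calls were lost, and mRNA-seq counts fell to 1 in CPA18 against control and 1 in CPA18 against CPA1. Of all 7794 genes, 154 and 138 were called in these comparisons without the block. In mRNA-seq, CPA18 against control gave 17 called genes without control replicate 2 and 12 to 27 without each experiment in turn (12 without experiment 3), and CPA18 against CPA1 gave 19 with TMM factors, 19 with DESeq2 and 24 to 30 without each experiment. In Ribo-seq, CPA1 against control gave 3 with TMM factors, 2 with library totals lacking Ins1, Ins2 and Lars2, 4 after centring, 2 with DESeq2, 3 with at least 10 counts in every library, 2 with the transcript of most reads and 1 to 2 without each experiment. CPA18 against control gave 15 with TMM, 12 after centring, 9 with DESeq2 and 17 to 25 without each experiment (17 without experiment 2, 18 without experiment 1). CPA18 against CPA1 gave 18 with TMM, 18 after centring, 14 with DESeq2 and 20 to 23 without each experiment. The cause was not tested. Occupancy gave 0 calls under every alternative run. Depth limits Copg2, Mcfd2, Tmed5, Kdelr3 and Bet1, with under 10 reads in a library of each assay, and Sec24b and Gosr2 in Ribo-seq.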
